A study of Mus musculus with 4 samples.

Results

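The enzymes described here add methyl groups to lysines or take them off again: the KMT2, NSD, ASH1L, SETD, DOT1L and KMT5 methyltransferases and the KDM demethylases. They were taken as every row on an autosome or the X chromosome whose gene symbol starts with Kdm1 to Kdm8, Kmt2 or Kmt5, or is Setd1 to Setd7, Nsd1 to Nsd3, Dot1l or Ash1l, which gave 38 of 56239 genes. Of these, 19 carry a methyltransferase or SET-domain name and 19 a Kdm name. The Kdm names include Kdm6bos, a transcript from the strand opposite to Kdm6b, and Kdm4dl, an unprocessed pseudogene, and the other 36 are protein coding.

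Thymus cells of C57BL/6 mice that carried both CD4 and CD8 (CD4+CD8+ double-positive, or DP, thymocytes) were sorted and profiled by RNA-seq; this is the stage at which T cell precursors rearrange and test their receptor. WT cells came from CHAF1bfloxp/floxp mice without Cre, and KO cells came from Cd4-cre;CHAF1bfloxp/floxp mice, so that both groups carried the floxed alleles and only KO carried Cre, driven by Cd4 regulatory sequence. The labels give no ages and no number of mice behind a library. Chaf1b encodes a subunit of chromatin assembly factor 1, which wraps freshly replicated DNA into nucleosomes, and the study's title concerns its place in the development of invariant natural killer T cells from DP thymocytes. There were 2 libraries per genotype.

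Lysine methylation of histones marks what a stretch of chromatin is used for. Methylation of H3 lysine 4 is found at promoters and enhancers, that of H3 lysines 36 and 79 over transcribed genes, that of H3 lysine 27 over silenced genes and that of H4 lysine 20 on older chromatin and heterochromatin. SET-domain enzymes and DOT1L place these marks with S-adenosylmethionine as the methyl donor, KDM1 enzymes remove them by amine oxidation, and Jumonji-domain KDM enzymes remove them with iron and 2-oxoglutarate.

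Promoters of 6 members are shown first, because the values below turn on these genes. They are 5 of the 6 members with the largest differences among those whose groups did not overlap, 3 in each direction, and Kmt2d, which had the largest higher value of all; the other member of the 6 is Nsd1. They run from 250 bases before to 50 bases after the start of the RefSeq transcript on GRCm38.p6, 5′ to 3′ on the gene's strand, with each CG dinucleotide in capitals. Setd6 (chr8:95715663-95715962, plus strand), Kdm5b (chr1:134559928-134560227, plus strand) and Kmt5c (chr7:4739877-4740176, plus strand) are followed by Setd4 (chr16:93603766-93604065, minus strand), Kdm7a (chr6:39206724-39207023, minus strand) and Kmt2d (chr15:98871156-98871455, minus strand).
Setd6: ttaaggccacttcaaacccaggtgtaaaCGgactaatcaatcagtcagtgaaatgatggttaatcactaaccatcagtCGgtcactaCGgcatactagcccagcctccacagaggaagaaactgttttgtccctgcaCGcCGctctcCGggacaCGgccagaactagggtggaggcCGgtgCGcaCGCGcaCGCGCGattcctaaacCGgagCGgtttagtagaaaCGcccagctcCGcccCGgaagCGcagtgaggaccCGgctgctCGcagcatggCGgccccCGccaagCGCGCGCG
Kdm5b: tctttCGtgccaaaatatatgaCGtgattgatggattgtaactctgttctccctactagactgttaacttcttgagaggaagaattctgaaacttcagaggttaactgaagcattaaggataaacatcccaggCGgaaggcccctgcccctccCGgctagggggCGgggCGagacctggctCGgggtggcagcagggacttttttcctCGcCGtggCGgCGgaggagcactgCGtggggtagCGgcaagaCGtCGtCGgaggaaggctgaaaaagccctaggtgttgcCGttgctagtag
Kmt5c: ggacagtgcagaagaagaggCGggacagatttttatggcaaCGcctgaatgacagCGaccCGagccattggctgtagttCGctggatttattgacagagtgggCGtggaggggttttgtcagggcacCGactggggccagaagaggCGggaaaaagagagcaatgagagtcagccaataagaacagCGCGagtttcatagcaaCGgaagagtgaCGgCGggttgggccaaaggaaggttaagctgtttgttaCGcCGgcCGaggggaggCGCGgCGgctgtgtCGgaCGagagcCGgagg
Setd4: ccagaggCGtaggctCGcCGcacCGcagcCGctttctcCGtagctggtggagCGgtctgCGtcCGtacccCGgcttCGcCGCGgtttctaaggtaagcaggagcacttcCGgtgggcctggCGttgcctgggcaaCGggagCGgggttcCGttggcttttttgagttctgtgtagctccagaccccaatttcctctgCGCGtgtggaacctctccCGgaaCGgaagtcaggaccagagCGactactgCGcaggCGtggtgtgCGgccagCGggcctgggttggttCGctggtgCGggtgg
Kdm7a: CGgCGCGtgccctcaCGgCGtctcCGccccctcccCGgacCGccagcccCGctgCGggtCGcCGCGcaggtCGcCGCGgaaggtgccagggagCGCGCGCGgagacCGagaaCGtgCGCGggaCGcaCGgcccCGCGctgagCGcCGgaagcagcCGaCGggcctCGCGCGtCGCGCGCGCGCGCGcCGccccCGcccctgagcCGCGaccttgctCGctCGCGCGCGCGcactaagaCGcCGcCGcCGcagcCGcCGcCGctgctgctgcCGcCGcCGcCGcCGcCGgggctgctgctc
Kmt2d: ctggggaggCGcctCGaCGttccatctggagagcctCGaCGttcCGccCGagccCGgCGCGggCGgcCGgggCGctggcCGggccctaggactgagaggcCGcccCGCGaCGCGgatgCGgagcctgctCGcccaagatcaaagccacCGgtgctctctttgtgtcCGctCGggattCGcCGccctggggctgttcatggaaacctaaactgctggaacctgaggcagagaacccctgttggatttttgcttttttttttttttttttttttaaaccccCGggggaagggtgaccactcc

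The windows of the 3 genes with the largest lower values in KO held 22 (Kmt5c), 28 (Setd6) and 29 (Setd4) CG dinucleotides, and those of 3 genes with higher values held 17 (Kdm5b), 27 (Kmt2d) and 65 (Kdm7a). The RefSeq table held 35 promoters of 25 members, with chromosome 18 left out, and their median was 27 CG dinucleotides. The median was 20 over the 12737 promoters of genes tested for expression and 7 over all 32851 promoters. At least 20 CG dinucleotides were found in 65.7% of the members' promoters, in 51.0% of those of tested genes and in 26.5% of all. Searched on both strands, the letters GGGCGG occurred in Kmt2d (4 times), Kdm7a (3 times), Kdm5b and Setd6, and in 71.4% of the members' promoters, 60.0% of those of tested genes and 35.7% of all. CCAAT occurred in Kmt5c and Setd4 (members 42.9%, tested genes 37.8%, all 37.4%), and CCGGAAG in Kdm7a, Setd4 and Setd6 (17.1%, 17.8% and 8.86%). None of the 35 windows held TATAAA, which 7.26% of the promoters of tested genes and 13.6% of all held.

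The libraries held 23215539 and 27369874 counts (WT replicates 1 and 2) and 24688653 and 21068760 counts (KO replicates 1 and 2), of which the members took 0.833% to 1.01%. By Xist and Y-linked transcripts, replicate 1 was female and replicate 2 male in both genotypes, so every group mixes the sexes, and p-values here reflect the variation among these few libraries only. Mitochondrial counts made up 1.33% and 1.45% in WT replicates 1 and 2 and 3.30% and 2.03% in KO replicates 1 and 2. Ribosomal protein genes took 2.86% and 2.91%, then 4.94% and 3.59%. In both shares the KO libraries lay above the WT libraries, with KO replicate 1 the highest. Chaf1b had 27.9 and 31.7 CPM (library-scaled counts, TMM) in WT and 12.2 and 14.8 in KO. In edgeR's quasi-likelihood test with a term for the replicate number (the sex-term fit), it fell by 1.15 ± 0.17 (SE) on the log2 scale (adjusted p = 0.0172), and without that term its adjusted p was 0.267. All 14 DP markers had counts, summing to 24082 to 25615 CPM, against sums of 18.6 to 32.9 for B cell markers, 6.76 to 10.9 for macrophage and granulocyte markers (S100a8 at 0), 0.732 to 1.62 for dendritic markers, 97.9 to 140 for NK and gamma-delta markers (Ncr1 and Gzmb at 0) and 140 to 180 for stroma. B cell sums were 18.6 and 24.4 in WT and 30.5 and 32.9 in KO, and NK and gamma-delta sums 114 and 97.9, then 140 and 126. Macrophage and granulocyte sums were 10.9 and 9.90, then 6.76 and 8.45. Liver transcripts summed to 465 and 439 CPM in replicate 1 of WT and KO and to 101 and 10.1 CPM in replicate 2. The sex-term fit called 1 of 4 tested B cell markers and 1 of 4 tested NK and gamma-delta markers higher in KO. It called 1 of 12 tested liver transcripts lower, and no DP, macrophage and granulocyte or stroma marker in either direction. Of all tested genes it called 1.01% higher and 2.2% lower. The part of any of these transcripts in the results below was not tested.

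No member passed the test between genotypes. Of the 38, 36 passed the filter on low counts; Kdm4d (0 and 4 counts in WT, 7 and 8 in KO) and the pseudogene Kdm4dl (1 and 3, then 0 and 0) did not. In edgeR's quasi-likelihood test with Benjamini-Hochberg adjustment over 15070 genes, 0 members were called higher and 0 lower, where 0.00664% of all tested genes were called higher and 0.0% lower. In the sex-term fit 0 members were again called in either direction, against 1.01% of all genes higher and 2.2% lower. At an unadjusted p under 0.05, edgeR marked 4 of 36 members (11.1%; Nsd1 higher, Kdm8, Setd4 and Setd6 lower) and 16.8% of all tested genes, and the sex-term fit marked 7 (19.4%), adding Kdm5b, Kmt2d and Kmt5c, against 21.4%. DESeq2 called 0 members, against 1.38% of all genes higher and 2.01% lower, and limma-voom 0 members and 1 gene in all. The log2 difference, KO minus WT, ran from -0.79 (Setd4) to 0.65 (Kmt2d), with a median of 0.08 over the members and -0.00 over all genes. For 29 of 36 members (80.6%) the 95% interval of the difference lay inside 1 log2 unit on both sides of 0, which 61.0% of all tested genes met (a 2-fold change is 1 log2 unit). Smaller differences than these intervals allow were not detectable with 2 libraries a group.

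Levels differed more between members than between genotypes. In TPM, which scales counts by transcript length and by library, the mean over 4 libraries ran from 10.8 (Kdm6bos) to 257 (Kdm6b) among the 36, and the next highest were Kmt2d (182), Setd7 (154), Kdm4a (149) and Kmt2a (144). The lowest coding members past the filter were Setd4 (18.8), Setd6 (20.6), Kdm2b (24.8) and Kdm8 (25.4). Bulk RNA gives a level per library, in which fewer cells of a type and less RNA per cell cannot be told apart. TPM is used here only to set members beside each other; genotypes are compared in CPM.

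**Figure D1:**
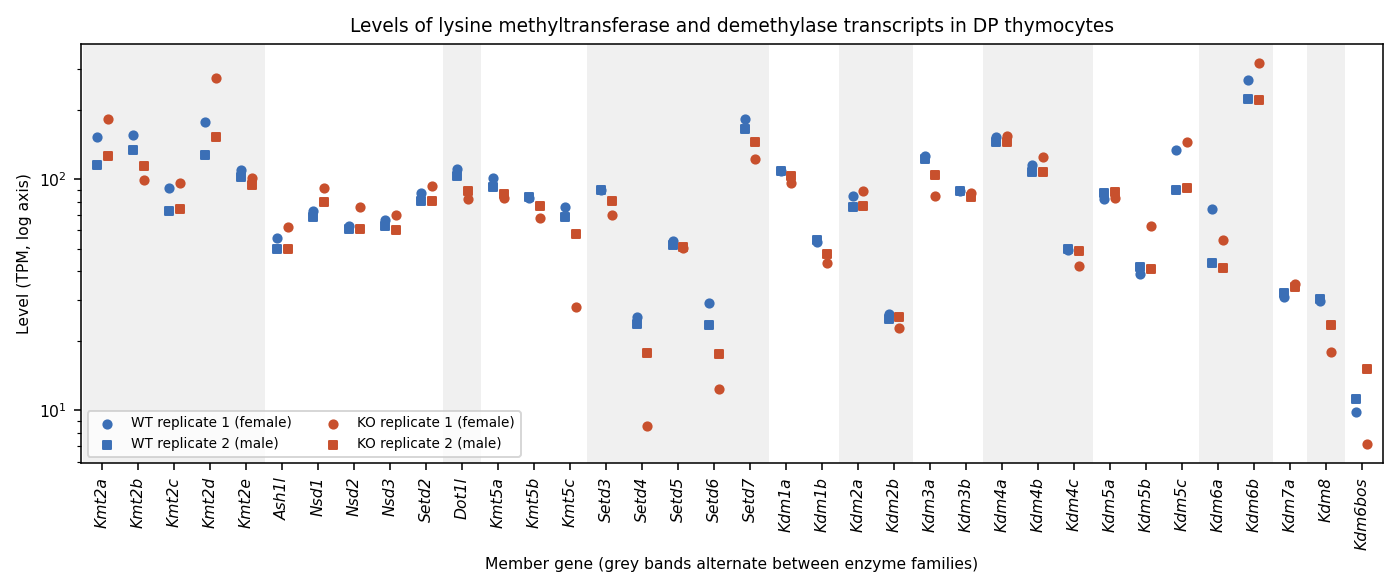
Level of each of the 36 members with enough counts, in TPM on a log axis, by family; circles are replicate 1 (female), squares replicate 2 (male), blue WT and red KO. Kdm6b has the highest mean (257) and Kdm6bos the lowest (10.8), and the red circles, KO replicate 1, lie farthest from the other libraries for Setd4, Kmt5c and Kmt2d.

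The KMT2 family, which methylates H3 lysine 4, held the member with the largest higher value and 1 with a lower value in both KO libraries. Kmt2d (chromosome 15, 98831669 to 98871204), whose product primes enhancers, stood at 935 and 667 CPM in WT and 1692 and 825 in KO. The high value was that of KO replicate 1 alone, and KO replicate 2 lay between the WT libraries. The log2 difference was 0.65 ± 0.36 (SE, 95% interval -0.22 to 1.53), with an adjusted p of 0.375 in edgeR's test. In the sex-term fit the difference was 0.58 ± 0.22 and the adjusted p 0.158. Without KO replicate 1 the difference was 0.04, and in the male pair it was 0.31. Kmt2d is named outside the rule for named genes, after its values were seen. Kmt2a, the MLL1 enzyme active at developmental promoters, stood at 678, 507, 937 and 571 CPM in WT replicates 1 and 2 and KO replicates 1 and 2, and Kmt2c, the close relative of Kmt2d, at 495, 388, 603 and 410. In each genotype replicate 1 was the higher library for both genes, the groups overlapped, and the differences were 0.35 and 0.20. Kmt2b, the MLL2 enzyme of CpG-rich promoters, stood at 398 and 338 CPM in WT and 295 and 298 in KO. Its groups did not overlap, with a difference of -0.31 ± 0.13 (adjusted p = 0.304, edgeR). Kmt2e, whose SET domain lacks known activity, had 303 and 281 CPM in WT and 328 and 268 in KO, a difference of 0.03.

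Every member of the H3 lysine 36 group had a positive difference, none past the threshold, and the family median was 0.23. Nsd1 (chromosome 13, 55209782 to 55318325), which places mono- and dimethylation, stood at 339 and 315 CPM in WT and 497 and 379 in KO. Both KO libraries lay above both WT libraries. The difference was 0.42 ± 0.17 (95% interval 0.02 to 0.83), with an adjusted p of 0.290 in edgeR's test and 0.204 in the sex-term fit. Its relative Nsd2, 281 and 270 CPM in WT, had 395 in KO replicate 1 and 279 in KO replicate 2, a difference of 0.29. Ash1l (220 and 194 CPM in WT, 284 and 202 in KO), a SET enzyme linked to Polycomb antagonism, and Setd2 (250 and 229, then 311 and 236), the enzyme of trimethylation behind elongating polymerase, differed by 0.23 and 0.19. Nsd3 (294 and 273, then 358 and 270) differed by 0.15. In Nsd2, Nsd3, Ash1l and Setd2 the 1 high library was KO replicate 1 and the groups overlapped. Without that library the differences were 0.21 (Nsd1), 0.02 (Nsd2), -0.02 (Setd2), -0.03 (Ash1l) and -0.07 (Nsd3). That fit set the male KO library against WT libraries of both sexes. In the male pair the differences were 0.27 (Nsd1), 0.05 (Nsd2), 0.04 (Setd2), 0.06 (Ash1l) and -0.01 (Nsd3).

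Dot1l, the enzyme of H3 lysine 79, which has no SET domain, stood at 256 and 236 CPM in WT and 222 and 212 in KO. The groups did not overlap, and the difference of -0.18 ± 0.11 had an adjusted p of 0.422 in edgeR's test. Among H4 lysine 20 enzymes, Kmt5a, which places the first methyl group during the cell cycle, had 143 and 130 CPM in WT and 137 and 124 in KO (-0.06). Kmt5b, which adds further methyl groups, had 326 and 327, then 310 and 307 (-0.08). Both differences were smaller than their SE of 0.12 and 0.11, although both KO libraries of Kmt5b lay below both WT libraries.

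Kmt5c (chromosome 7, 4740115 to 4747514), which trimethylates H4 lysine 20 in heterochromatin, gave the widest value of its family. It stood at 81.0 and 72.5 CPM in WT and 34.5 and 63.1 in KO. The groups did not overlap, and KO replicate 1 was the low library. The mean was 76.7 ± 6.00 (SD, n = 2) in WT and 48.8 ± 20.2 (SD, n = 2) in KO, with a difference of -0.65 ± 0.27 (95% interval -1.32 to 0.02). Its adjusted p was 0.301 in edgeR's test and 0.0754 in the sex-term fit; without KO replicate 1 the difference was -0.28.

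Of the other SET-domain proteins, 4 of 5 had both KO libraries below both WT libraries, as had 28.4% of all tested genes. Setd4 (chromosome 16, 93583457 to 93604063) has been tied to quiescent cells. It stood at 36.3 and 33.5 CPM in WT and 14.2 and 26.1 in KO, with no overlap and the lowest value in KO replicate 1. The mean was 34.9 ± 1.97 (SD, n = 2) in WT and 20.1 ± 8.35 (SD, n = 2) in KO. The difference was -0.79 ± 0.28 (95% interval -1.47 to -0.12) with an adjusted p of 0.269 in edgeR's test, and -0.85 ± 0.21 in the sex-term fit with an adjusted p of 0.0528, the lowest of any member there. Without KO replicate 1 it was -0.42.

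Setd4 lies on the chromosome of the targeted gene, 280 kb before Chaf1b (93883901 to 93906115). Between them the table has 10 genes, of which 4 were tested. All 4, looked up after the values of Setd4 were seen, had negative differences, also within the female and the male pair. Of all 15070 tested genes, 5533 were negative in both pairs and 5345 positive in both, and the median difference was -0.0026. Cbr1, the nearest, differed by -0.14 ± 0.13 (SE), Dop1b by -0.13 ± 0.12 and Morc3 by -0.07 ± 0.11. Their adjusted p in edgeR's test was 0.6003, 0.6006 and 0.7811. The antisense transcript 2310043M15Rik, with 12 and 17 counts in WT and 2 and 4 in KO, differed by -1.99 ± 0.65 (adjusted p = 0.267 in edgeR's test, 0.158 in the sex-term fit), and reads of the opposite strand cannot be told apart there.

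Setd6 (chromosome 8, 95715881 to 95719010), which methylates the NF-kappaB subunit RelA, stood at 14.7 and 11.7 CPM in WT and 7.28 and 9.12 in KO. Both KO libraries were below both WT libraries. The difference was -0.69 ± 0.21 (95% interval -1.21 to -0.17), with an adjusted p of 0.267 in edgeR's test and 0.113 in the sex-term fit, and it was -0.53 without KO replicate 1. Setd7, which methylates H3 lysine 4 and many other proteins, stood at 525 and 471 CPM in WT and 409 and 427 in KO (-0.25 ± 0.13). Setd3, the histidine methyltransferase of actin, had 144 and 143, then 131 and 132 (-0.13 ± 0.10). The groups of Setd7 and Setd3 did not overlap, and their adjusted p in edgeR's test was 0.361 and 0.526. Setd5 had 264 and 251 CPM in WT and 287 and 254 in KO, with overlap and a difference of 0.07.

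**Figure D2:**
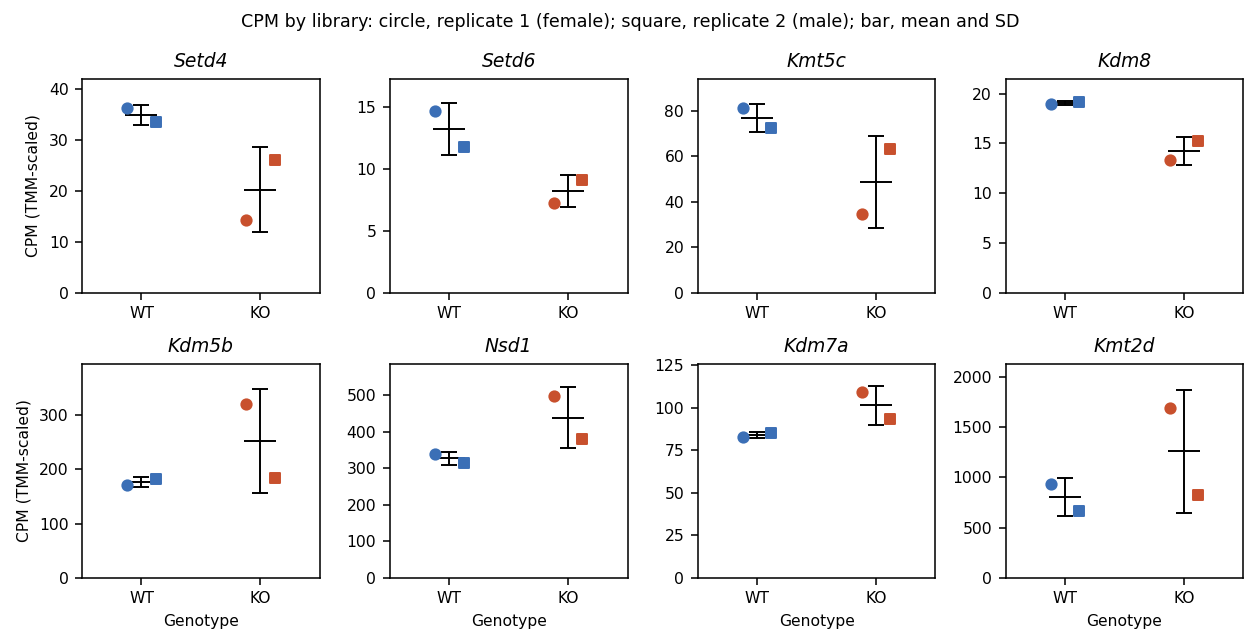
CPM per library for 8 members, with WT and KO side by side, circles for replicate 1, squares for replicate 2, and lines for the mean and SD of 2 libraries, each axis from 0. In Setd4, Setd6, Kmt5c and Kdm8 both KO points lie below both WT points; in Kdm5b, Nsd1 and Kdm7a both lie above, and in Kmt2d KO replicate 2 (825) lies between the WT points (667 and 935).

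Among the demethylases the differences of the KDM1 and KDM2 families ran from -0.12 (Kdm1b) to 0.19 (Kdm2a), with none past the threshold. Kdm1a (LSD1), which works in the CoREST complex on H3 lysine 4, stood at 150, 149, 154 and 146 CPM in WT replicates 1 and 2 and KO replicates 1 and 2, a difference of 0.01 ± 0.10 (95% interval -0.25 to 0.26). Its relative Kdm1b had 78.1 and 78.9 CPM in WT and 73.6 and 71.2 in KO (-0.12 ± 0.11). Kdm2a and Kdm2b bind unmethylated CpG islands through a CXXC domain. Kdm2a had 326 and 288, then 396 and 302 CPM (0.19, with -0.02 without KO replicate 1 and 0.07 in the male pair). Kdm2b had 75.7 and 71.3, then 76.7 and 75.1 (0.05). Kdm1b was the 1 gene of these 4 whose groups did not overlap.

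KDM3 enzymes act on H3 lysine 9 and KDM4 enzymes on H3 lysines 9 and 36. Kdm3a stood at 276 and 266 CPM in WT and 214 and 235 in KO, without overlap, and differed by -0.27 ± 0.12 (adjusted p = 0.303, edgeR). Kdm3b had 332 and 329, then 379 and 323 (0.09). In the KDM4 family Kdm4a had 234 and 222, then 276 and 229 CPM (0.15), Kdm4b 150 and 138, then 188 and 143 (0.20), and Kdm4c 76.6 and 76.7, then 76.0 and 77.7 (0.00). The groups overlapped in Kdm3b and in each of these 3 KDM4 genes.

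KDM5 enzymes remove methyl groups from H3 lysine 4, and each of the 3 had a positive difference. That of Kdm5c, given below with its X-linked partner, was -0.24 without KO replicate 1. That fit set the male KO library against WT libraries of both sexes. Within the pairs Kdm5c differed by 0.33 (female) and 0.08 (male). Kdm5b (chromosome 1, 134560171 to 134635285) stood at 171 and 183 CPM in WT and 320 and 185 in KO. KO replicate 2 lay just above the higher WT library, and KO replicate 1 was the high library. The difference was 0.52 ± 0.25 (95% interval -0.10 to 1.13) with an adjusted p of 0.339 in edgeR's test and 0.210 in the sex-term fit, and 0.07 without KO replicate 1. Kdm5a, a partner of the RB protein, had 309 and 324 CPM in WT and 365 and 339 in KO, without overlap and with a difference of 0.15 ± 0.12.

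Kdm7a (chromosome 6, 39136623 to 39206789), which acts on H3 lysines 9 and 27, stood at 82.9 and 85.2 CPM in WT and 109 and 93.3 in KO. Both KO libraries were above both WT libraries. The difference was 0.27 ± 0.12 (95% interval -0.03 to 0.58), with an adjusted p of 0.321 in edgeR's test and 0.290 in the sex-term fit, and it was 0.15 without KO replicate 1. Kdm8 (JMJD5; chromosome 7, 125444676 to 125462269) had 18.9 and 19.2 CPM in WT and 13.3 and 15.2 in KO. Its groups did not overlap and differed by -0.42 ± 0.15 (95% interval -0.79 to -0.05), with an adjusted p of 0.275 in edgeR's test and 0.211 in the sex-term fit; without KO replicate 1 the difference was -0.32.

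The 2 KDM6 enzymes take methyl groups off H3 lysine 27, and Kdm6b, at a mean of 257 TPM, stood above Kdm6a at 53.5 TPM in every library. Kdm6b (JMJD3) stood at 494 and 408 CPM in WT and 684 and 418 in KO, with overlap and a difference of 0.29 ± 0.25. Its opposite-strand transcript Kdm6bos had 52 and 70 counts in WT and 42 and 75 in KO, or 2.19 and 2.47, then 1.85 and 3.47 CPM. Reads over the 34.0% of its exon length that overlaps Kdm6b exons were left out of the counts of both genes. Because the kit does not mark strand, reads of either strand were counted over the rest of Kdm6bos.

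Kdm6a (UTX) and Kdm5c are X-linked genes known to be expressed from both X chromosomes in female cells, and they separated the libraries by replicate number rather than by genotype. Kdm6a stood at 166 and 142 CPM in replicate 1 of WT and KO and at 96.0 and 94.4 in replicate 2. Kdm5c stood at 252 and 317 in replicate 1 and at 169 and 178 in replicate 2. For both genes the female libraries were above both male libraries, which also held for autosomal members, among them Kmt2a, Kmt2c, Kmt2d and Kdm6b. Replicate 1 minus replicate 2 was 0.69 ± 0.14 (95% interval 0.38 to 1.00) for Kdm6a and 0.70 ± 0.16 (0.36 to 1.05) for Kdm5c, with adjusted p of 0.0562 and 0.0893 in edgeR's sex-term fit. In that comparison 0 members were called, against 0.524% of all genes higher and 0.0664% lower in replicate 1. The largest positive values of autosomal members there were 0.76 ± 0.22 (Kmt2d) and 0.57 ± 0.19 (Kmt2a). Their adjusted p in edgeR's sex-term fit was 0.311 and 0.483. The most negative value was -0.53 ± 0.34 (Kdm6bos). Sex cannot be told apart here from anything else the replicate number marks. KO minus WT, without the sex term, was -0.15 ± 0.30 for Kdm6a and 0.23 ± 0.31 for Kdm5c. In the sex-term fit it was -0.13 ± 0.14 for Kdm6a and 0.20 ± 0.16 for Kdm5c.

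The Y-linked relatives Kdm5d and Uty are not members and are named after their values were seen. Kdm5d had 0 and 3365 counts in WT and 1 and 2324 in KO, and Uty 0 and 1382, then 0 and 1027. In TPM, Kdm5d came to 29.7 and 26.0 in the male WT and KO libraries and Uty to 18.9 and 17.8. Adding the Y copy brought the Kdm5c level to 133 (WT) and 144 (KO) in female libraries and to 120 and 118 in male ones. For Kdm6a with Uty the sums were 74.6 and 54.7 in female (WT and KO) and 62.3 and 59.1 in male libraries. TPM lacks the TMM scaling of the CPM values, whose factor was 0.919 in KO replicate 1. These sums therefore do not rank KO against WT libraries.

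**Figure D3:**
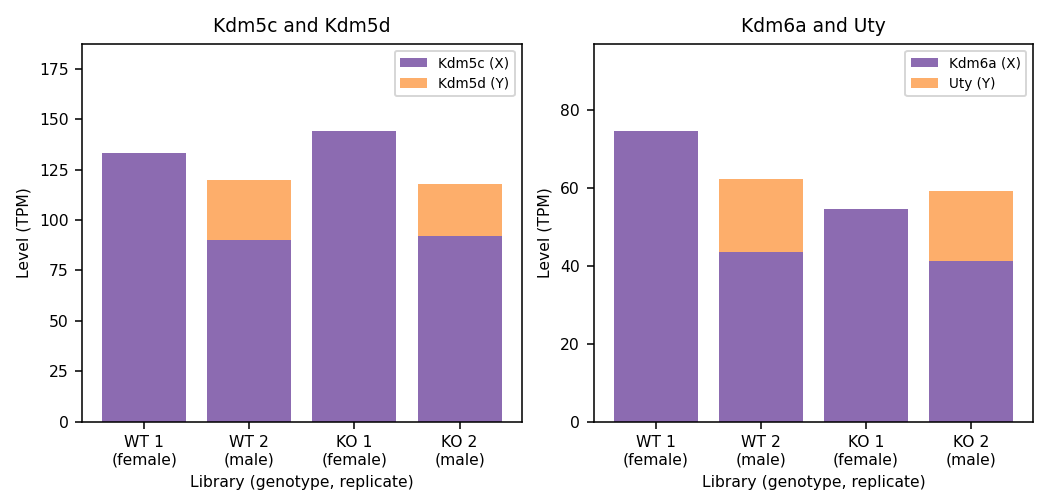
Stacked TPM of the X-linked Kdm5c and Kdm6a (purple) and their Y-linked relatives Kdm5d and Uty (orange) in each library, axes from 0. The Y copy appears in the male libraries (Kdm5d 29.7 and 26.0, Uty 18.9 and 17.8), and the summed bars differ less between sexes than the purple parts.

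Direction was counted over libraries next. Both KO libraries were above both WT libraries for 4 of 36 members (11.1%; Kdm5a, Kdm5b, Kdm7a and Nsd1), where 27.9% of all tested genes did so. Both were below for 11 (30.6%; Dot1l, Kdm1b, Kdm3a, Kdm8, Kmt2b, Kmt5b, Kmt5c, Setd3, Setd4, Setd6 and Setd7), against 28.4% of all genes, and the other 21 overlapped. The share of lower members was near that of all genes. By class, 8 of 19 methyltransferase and SET members and 3 of 16 tested demethylases were lower in both KO libraries, and 1 and 3 were higher; the median difference was 0.03 for the former and 0.12 for the latter.

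The 2 KO and WT pairs of the same replicate number were then set side by side. The difference had the same sign in both pairs for 30 of 36 members (17 higher, 13 lower) and for 5345 (higher) and 5533 (lower) of all 15070 genes. It was larger in size in the female pair for 31 of 36 (86.1%), as for 73.3% of all tested genes. The members' median was 0.12 for the female pair and 0.02 for the male pair, where all genes had -0.01 and -0.00. Female libraries differed by -1.34 in Setd4 and male ones by -0.36; in the same order Kmt5c differed by -1.23 and -0.20, and Setd6 by -1.005 and -0.36. On the higher side Kdm5b differed by 0.91 and 0.02, Kmt2d by 0.86 and 0.31, Nsd1 by 0.55 and 0.27 and Kdm7a by 0.40 and 0.13. Female KO is the library with 3.30% mitochondrial counts, so sex and that library cannot be told apart in this contrast.

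**Figure D4:**
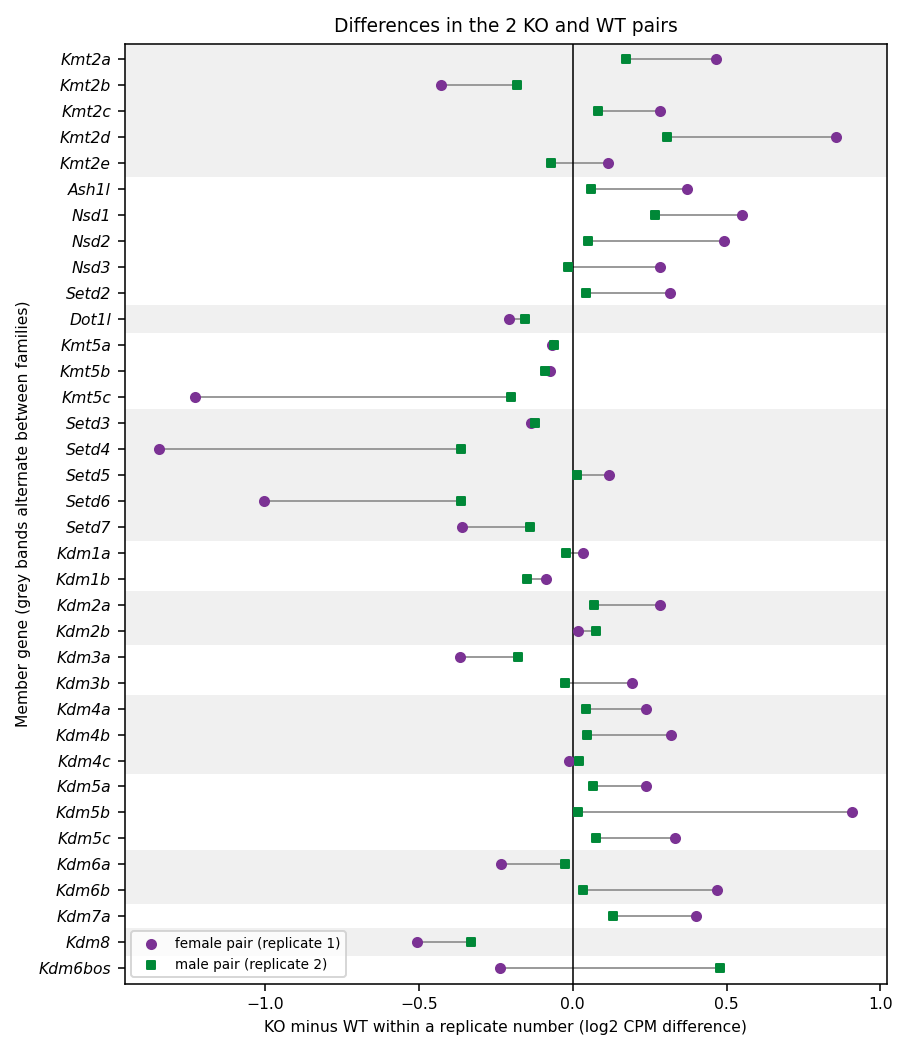
Difference KO minus WT in log2 CPM for each of 36 members by family, in the female pair (purple circles, replicate 1) and the male pair (green squares, replicate 2), with a line joining them. The circle lies farther from 0 than the square for 31 of 36 members, and the male pair stays between -0.36 (Setd4, Setd6) and 0.48 (Kdm6bos).

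How many members were called depended on which KO library was left out. With KO replicate 2 left out, so that KO replicate 1 stood alone against both WT libraries, edgeR's test called 16 members higher (44.4%) and 6 lower (16.7%), against 16.3% and 16.8% of all genes. Those called higher included all 5 H3 lysine 36 enzymes, all 3 KDM5 enzymes, and Kmt2a, Kmt2c, Kmt2d, Kdm2a, Kdm4a, Kdm4b, Kdm6b and Kdm7a; those called lower were Kmt2b, Kmt5c, Setd4, Setd6, Kdm3a and Kdm8. With KO replicate 1 left out instead, 0 members were called in either direction, against 0.272% of all genes higher and 0.73% lower, and the members' median was -0.06. In both fits the lone KO library was assumed to vary as the WT libraries do. Its single sex was set against WT libraries of both sexes, so these values mix sex with genotype. Without KO replicate 2 Kmt2d, Kmt2a and Kdm5c differed by 1.08, 0.66 and 0.59, against 0.86, 0.47 and 0.33 in the female pair. Setd4 and Kmt5c differed by -1.29 and -1.15, against -1.34 and -1.23.

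The members are long transcripts, and their differences were set against exon length. The median counted length was 9827 bases against 3703 for all tested genes. Across the 36 members, which share the same 4 libraries and are not independent replicates, Spearman's rho of the difference with length was 0.58, with 0.63 for the female pair and 0.48 for the male pair; Pearson's r with log2 length was 0.52, 0.60 and 0.22. Over all 15070 genes rho was 0.09, 0.11 and 0.03. Above 12000 bases the median difference was 0.20 for 13 members and 0.15 for all 663 genes, and in the female pair 0.28 and 0.25. Members above 12000 bases thus stood near other genes of their length. Between 8000 and 12000 bases the 9 members had a median of -0.15 against 0.08 for all 1470 genes. From 3000 to 8000 bases 11 members had a median of 0.0048 against -0.01 for all 6920 genes, and at or under 3000 bases Kdm8, Setd6 and Kdm6bos had a median of -0.42 against -0.04. The members' medians thus did not rise in order over the 4 classes. The part of length in the members' differences was not tested further.

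**Figure D5:**
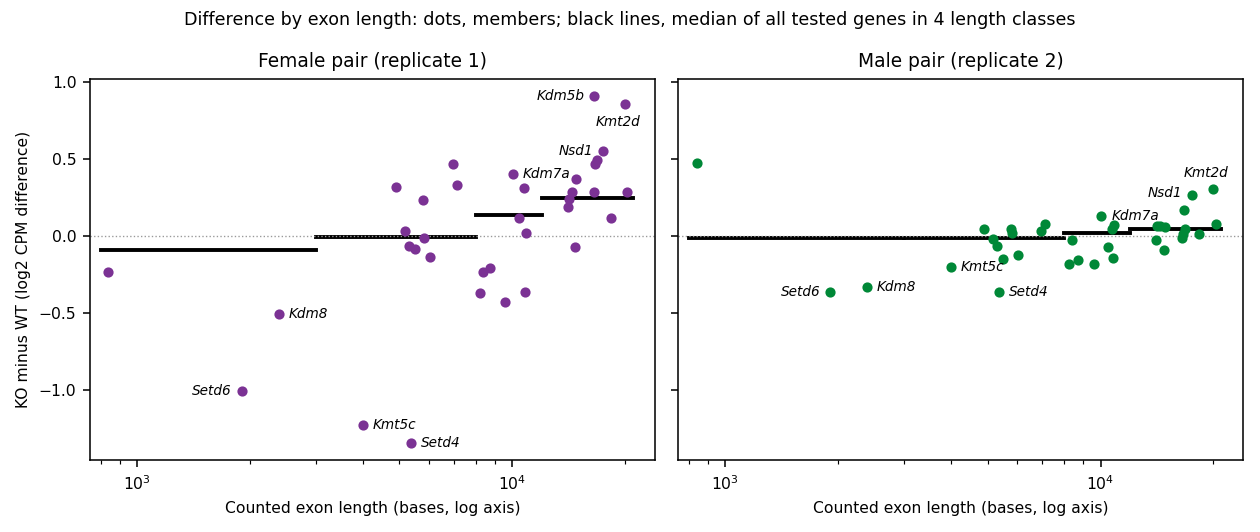
Difference KO minus WT in log2 CPM of the 36 members (dots) against counted exon length on a log axis, female pair on the left and male pair on the right; black lines are the medians of all tested genes in 4 length classes. In the female pair Setd4 (-1.34), Kmt5c (-1.23) and Setd6 (-1.005) lie far under the lines, and Kdm5b (0.91) and Kmt2d (0.86) above; in the male pair the spread is smaller.

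Partners and other enzymes of lysine methylation were counted from 7 lists. Without the sex term edgeR called 0 genes in any of them, and the edgeR sex-term fit called 3 genes lower, in a fit that called 2.2% of all tested genes lower. Of 12 tested CoREST partners of Kdm1a, 1 was called lower, Hmg20b, a DNA-binding subunit. It stood at 96.3 and 99.0 CPM in WT and 37.9 and 61.5 in KO, a difference of -1.01 ± 0.17 (adjusted p = 0.0194 in the edgeR sex-term fit). Of 14 tested other Jumonji-domain genes, 1 was called lower, Jmjd6, a lysyl hydroxylase. It had 79.6 and 63.3, then 39.8 and 45.2 CPM, a difference of -0.74 ± 0.16 (adjusted p = 0.0336 in the same fit). Of 28 tested readers of H3 lysines 4, 36 and 79 and H4 lysine 20, 1 was called lower, Phf1, a Tudor-domain partner of Polycomb complex 2. It had 71.3 and 58.6, then 13.0 and 37.2 CPM, a difference of -1.53 ± 0.31 (adjusted p = 0.0309 in the same fit). Without the sex term each of the 3 had an adjusted p of 0.267 in edgeR's test. For all 3 genes both KO libraries were below both WT libraries, with KO replicate 1 the lowest, and without that library edgeR gave -0.67 (Hmg20b), -0.66 (Jmjd6) and -0.80 (Phf1). DESeq2 gave adjusted p of 0.00509, 0.0124 and 0.279 in the same order, so that Phf1 was not called there. The list medians were -0.19, -0.00 and -0.12, against -0.00 for all genes. Both KO libraries were below both WT libraries for 10 of 12 CoREST partners, 5 of 14 Jumonji-domain genes and 11 of 28 readers. Both were above for 1, 4 and 4 genes of these lists. Over all tested genes 28.4% were below and 27.9% above.

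The other 4 lists had no gene called in either edgeR fit. The 16 tested COMPASS partners of KMT2 enzymes had a median of -0.04, with Hcfc1 at 0.29 and Psip1 at -0.15, the 2 of highest level. The 12 partners of Dot1l and the super elongation complex had a median of 0.13 (Aff1 0.19, Cdk9 -0.33), and the 22 tested SMYD, PRDM and other methyltransferases -0.03 (Prdm2 0.02, Eef1akmt1 0.21). Among 15 genes of S-adenosylmethionine and 2-oxoglutarate supply the median was -0.02. There Mat2a, which makes S-adenosylmethionine, stood at 288 and 270 CPM in WT and 177 and 186 in KO. Its groups did not overlap, and its difference of -0.62 ± 0.16 had an adjusted p of 0.0527 in the edgeR sex-term fit and 0.267 without the term; DESeq2 called it lower (adjusted p = 0.00696). Idh2 differed by -0.02.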

How the data were processed

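The deposited values are raw counts of fragments per gene, made by the authors with featureCounts 1.6.3 over Ensembl 98 exons, per the file headers; the submitters' processing notes give featureCounts 1.6.4, with FastQC, Trim Galore 0.5.0, HISAT2, DESeq2 and GRCm38. The header command had no option for strand, for reads with several places or for reads over several genes, so reads shared by overlapping genes or near copies were left out of the deposited counts and antisense transcripts cannot be told apart. Of the members, Kmt2e (9.31% of exon length, with Srpk2), Kdm1b (9.19%, with Dek) and Kdm2b (8.74%) overlap other genes most after Kdm6bos. Gene lengths (bases), a deposited column, were used for TPM and the length comparison. Messenger RNA was selected on poly-T beads, per the labels' protocols. Columns of per-sample values not used numbered 0.

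Symbols came from GENCODE M21 (55154 of 56239 IDs, 98.1%); coordinates are those of the deposited table on GRCm38. Genes kept by filterByExpr (15070) were scaled by TMM (0.919 to 1.04) and tested, KO minus WT, with edgeR 4.0.16 (R 4.3.3) by the quasi-likelihood F test with Benjamini-Hochberg adjustment over all of them and a threshold of 0.05, without a covariate (2 residual degrees of freedom). The sex-term fit adds the replicate number (1 residual degree of freedom), in which sex and anything else the number marks are the same. Pair differences are log2 CPM with a prior count of 2. A count of 0 allows up to 3 counts, 0.110 to 0.142 CPM, for counting error only. The edgeR step was tested on simulated data.

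Alternatives were library totals, DESeq2 1.42.0 and its size factors, limma 3.58.1 voom, no filter, each library left out, and the replicate number as a term. Named were Chaf1b, all members by family, with full statistics for the 3 members a direction with the largest difference among those whose groups did not overlap, and from each list the genes past the threshold or else the 2 of highest level; values of Kmt2d, Kdm8 and the other members beyond these were added after they were seen. One list of markers of another cell type is not reported here. The members and lists were chosen with earlier results of these data known. The labels do not say whether replicates are separate mice; within a genotype they differ in sex.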

Additional observations from a re-analysis of the deposited data

Results flagged for a closer look

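Kdm6bos, the transcript opposite to Kdm6b, went opposite ways in the KO and WT pairs: KO minus WT was -0.24 in log2 CPM between the female libraries and 0.48 between the male libraries. The difference between the pairs was not tested. It rests on 42 to 75 counts a library.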

How the results depend on the processing

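Members called numbered 0 higher and 0 lower with library totals, DESeq2, DESeq2 size factors, limma-voom and the replicate block, which pairs the libraries by replicate number (also with library totals or DESeq2 size factors, both chosen after seeing the data); over all genes these fits called from 1 higher and 0 lower (library totals, limma-voom) to 208 and 303 (DESeq2). Without the low-count filter edgeR called 2 higher (Kdm5b, Kmt2d) and 2 lower (Setd4, Kmt5c) of 36, against 4.09% and 5.49% of the 15070 genes that pass it, and 3 between replicates, Kdm6a at 0.67, Kdm5c at 0.68 and Kmt2d at 0.74; the cause was not tested. Leaving out 1 library gave 0 to 16 members higher, 0 to 6 lower and a median from -0.060 to 0.16. The median was -0.0080 with library totals and -0.0081 with them under the replicate block; that scaling moved the median of all genes to -0.084. With library totals Kdm1a was -0.077, Kdm2b -0.035, Kdm4c -0.076, Kmt2e -0.060, Setd5 -0.016 and Prdm2 -0.065 (under the replicate block -0.077, -0.036, -0.078, -0.061, -0.016 and -0.066, and Kdm3b -0.00014).

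Leaving out 1 library turned these signs, with ranges of -0.031 to 0.46 (Ash1l), -0.027 to 0.041 (Kdm1a), -0.021 to 0.37 (Kdm2a), -0.030 to 0.20 (Kdm3b), -0.013 to 0.38 (Kdm4b), -0.012 to 0.023 (Kdm4c), -0.24 to 0.59 (Kdm5c), -0.50 to 0.30 (Kdm6a), -0.11 to 0.60 (Kdm6b), -0.33 to 0.57 (Kdm6bos), -0.051 to 0.66 (Kmt2a), -0.10 to 0.45 (Kmt2c), -0.12 to 0.17 (Kmt2e), -0.13 to 0.012 (Kmt5a), -0.068 to 0.34 (Nsd3), -0.018 to 0.38 (Setd2) and -0.021 to 0.16 (Setd5), and -0.039 to 0.56 (Hcfc1), -0.15 to 0.18 (Prdm2) and -0.090 to 0.052 (Idh2). Each fit with a library left out gave a genotype a single sex, so these ranges mix sex with genotype. Kdm6a was 0.30 without WT replicate 1, though its female and male pairs differed by -0.23 and -0.02. Of 36 members, 18 kept their sign in every setting run and 18 did not. Kdm4d and Kdm4dl, at 0 to 8 counts a library, were too shallow to compare.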
